A study of Mus musculus with 2 samples.

Results

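The 9 Nkx genes described here, Nkx2-1, Nkx2-2, Nkx2-9, Nkx6-1, Nkx6-2, Nkx2-5, Nkx2-6, Nkx2-3 and Nkx3-2, encode homeodomain transcription factors and are 9 of the 21938 protein-coding genes of the GENCODE M21 annotation on nuclear chromosomes. They were taken by name, with the gene body and 50 kb on either side as the window of each. DNase peaks, and hotspots wider than 2 kb where these were counted, were assigned by their centre. Hotspot coverage was counted in bases inside the window, and the widest hotspot was taken from all that overlapped it. Open chromatin had been mapped by DNase-seq, which sequences the ends of fragments that the enzyme DNase I releases from accessible DNA, in healthy B6NCrl mouse embryos at embryonic day 10.5. Whole embryos of both sexes were pooled, the labels give 2 biological replicates that carry the same donor entry, and both form 1 group without a control. The labels do not say how many embryos entered a pool or whether extraembryonic tissue was attached. No contrast between conditions can therefore be drawn, and no p-value is given.

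Nkx proteins bind DNA through a homeodomain and act as regional selectors during organ formation. In the ventral neural tube, Sonic hedgehog induces Nkx2-2, Nkx2-9, Nkx6-1 and Nkx6-2, which set the borders between progenitor domains by repressing genes of neighbouring domains. Nkx2-5 is an early regulator of the heart, Nkx2-6 is active in the pharyngeal pouches and the outflow region, and Nkx2-3 and Nkx3-2 act in mesenchyme of gut and spleen, Nkx3-2 also in the sclerotome that forms the vertebrae. Nkx2-1 is counted as neural for its role in the ventral forebrain, and is also required in thyroid and lung.

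Each of these genes is known to be active in a limited set of tissues, and in a whole embryo few open nuclei cannot be told apart from weak opening in many. Each deposited peak is 150 bp wide and carries a score, called strength here, whose median over all nuclear peaks was 50 for replicate 2 and 41 for replicate 1. Replicate 2 held 229568 nuclear peaks and replicate 1 held 207946, or 1.10 times as many in replicate 2. Read numbers were not part of the data used, and the depth of each library is unknown. Around the Nkx genes the replicates stood much further apart than this, so every result is given for each replicate as well as for the peaks they share. An overlap of at least 1 bp made peaks of the replicates shared, and shared peaks were counted as pairs matched one to one.

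Sequences of 7 shared sites are shown as examples of sites with a CTCF or Nkx2 motif and of strong promoter sites. Most distal shared peaks at these genes held neither motif. They are read from mm10 on the plus strand. The first 4 are the strongest distal shared peaks by mean strength (over 1 kb from any transcription start site, or TSS) of Nkx2-1, Nkx2-3, Nkx2-5 and Nkx2-6, and capitals mark a match, with at most 1 mismatch, to the core recognition sequence of the insulator protein CTCF. They lie at chr12:56541196-56541345 in an exon of the non-coding gene Gm26973, and between genes at chr19:43631016-43631165, chr17:26794856-26795005 and chr14:69145356-69145505.
Nkx2-1 distal: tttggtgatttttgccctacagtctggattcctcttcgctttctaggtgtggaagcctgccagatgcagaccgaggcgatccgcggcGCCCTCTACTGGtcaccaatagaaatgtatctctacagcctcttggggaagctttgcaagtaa
Nkx2-3 distal: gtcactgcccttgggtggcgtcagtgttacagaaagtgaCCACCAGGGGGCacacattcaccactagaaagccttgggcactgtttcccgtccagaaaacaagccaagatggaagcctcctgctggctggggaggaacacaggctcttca
Nkx2-5 distal: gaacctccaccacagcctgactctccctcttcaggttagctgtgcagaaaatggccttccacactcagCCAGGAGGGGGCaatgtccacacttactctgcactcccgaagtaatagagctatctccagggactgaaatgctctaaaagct
Nkx2-6 distal: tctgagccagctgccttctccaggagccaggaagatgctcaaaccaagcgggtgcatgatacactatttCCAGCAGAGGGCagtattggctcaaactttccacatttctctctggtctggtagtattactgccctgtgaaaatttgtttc
The next, in the intron of Nkx2-5 at chr17:26843376-26843525, is among the 3 strongest distal shared peaks of that gene and holds the Nkx2 motif TNAAGTG, which is in capitals.
Nkx2-5 intron: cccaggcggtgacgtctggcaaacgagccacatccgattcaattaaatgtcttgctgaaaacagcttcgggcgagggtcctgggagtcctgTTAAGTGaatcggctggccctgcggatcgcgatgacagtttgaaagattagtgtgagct
The last pair are promoter peaks, with CG dinucleotides in capitals. The first is the strongest shared peak of the whole set, upstream of Nkx6-1 at chr5:101665336-101665485, and the second lies upstream of Nkx3-2 at chr5:41764596-41764745.
Nkx6-1 promoter: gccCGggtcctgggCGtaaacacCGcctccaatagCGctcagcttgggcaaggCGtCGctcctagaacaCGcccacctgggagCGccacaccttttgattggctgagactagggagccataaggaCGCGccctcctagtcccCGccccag
Nkx3-2 promoter: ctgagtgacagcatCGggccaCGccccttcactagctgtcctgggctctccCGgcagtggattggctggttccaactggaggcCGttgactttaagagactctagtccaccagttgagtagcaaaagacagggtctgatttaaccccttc

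Promoter peaks separated the Nkx genes into 6 that were open in both replicates and 3 that were open in replicate 2 alone. A peak lay within 1 kb of an annotated TSS in both replicates at Nkx2-2, Nkx6-1, Nkx6-2, Nkx2-5, Nkx2-3 and Nkx3-2. This is 6 of 9, against 69.7% of all protein-coding genes. At Nkx2-1, Nkx2-9 and Nkx2-6 such a peak was called in replicate 2 only. Replicate 2 thus had a TSS peak at 9 of 9 Nkx genes, against 71.9% of all genes, and replicate 1 at 6 of 9, against 70.8%. A gene without a peak in a whole-embryo library may still be open in some cells.

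Among the neural genes, Nkx6-1, which specifies motor neuron progenitors and later beta cells of the pancreas, had the strongest promoter site. Its single shared TSS peak, 340 bp from the TSS (sequence above), had a strength of 126 in replicate 2 and 127 in replicate 1, so the replicates matched within 1 unit. A further 2 TSS peaks, with strengths of 67 and 73, were called in replicate 2 only. Nkx6-2, its close relative in the ventral neural tube, had a shared peak across its TSS with 104 in replicate 2 and 98 in replicate 1. It also had 4 TSS peaks of strength 52 to 76 in replicate 2 that had no partner.

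Nkx2-2, needed for the most ventral interneuron progenitors, had many weaker TSS peaks instead of a single strong one. Its 4 annotated TSSs and the antisense gene Nkx2-2os share this region. Replicate 2 held 7 TSS peaks and replicate 1 held 8, of which 6 were paired. The paired peaks ran between 49 and 84 in replicate 2 and between 22 and 55 in replicate 1, so each was stronger in replicate 2. The strongest by the mean of both replicates, 276 bp from the nearest TSS of the gene at chr2:147185676-147185825, had 83 in replicate 2 and 55 in replicate 1.

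At Nkx2-1 and Nkx2-9, which are neighbours on chromosome 12 with overlapping windows, no TSS peak was called in replicate 1. Nkx2-1 had 7 TSS peaks in replicate 2, with strengths of 53 to 76 and a median of 67. Nkx2-9, a partner of Nkx2-2 next to the floor plate, had 4 in replicate 2 with strengths of 51 to 75. A shared peak of Nkx2-9 lay just outside the 1 kb limit, 1392 bp from its TSS (chr12:56614676-56614825), and had 103 in replicate 2 and 99 in replicate 1.

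Of the cardiac genes, Nkx2-5 had 2 shared TSS peaks. One lay 304 bp from the TSS and had 78 in replicate 2 and 52 in replicate 1. The other, at a second annotated TSS, had 69 in replicate 2 and 46 in replicate 1. Replicate 2 held 9 TSS peaks in all at Nkx2-5, where replicate 1 held those 2 only. At Nkx2-6 replicate 2 held 5 TSS peaks, with strengths of 31 to 68 and a median of 54, and replicate 1 held 0.

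Both visceral genes had a strong promoter peak in both replicates. Nkx2-3, required for spleen and gut mesenchyme, had one across its TSS with 120 in replicate 2 and 98 in replicate 1. Nkx3-2 had one 95 bp from its TSS with 114 in replicate 2 and 93 in replicate 1, and another within the gene with 71 in replicate 2 and 61 in replicate 1. Replicate 1 also had an unpaired peak of 79 beside the TSS of Nkx3-2, separated by 111 bp from the nearest peak of replicate 2. It was the strongest unshared peak of replicate 1 in any of the windows.

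The number of peaks over the whole windows differed between the replicates by gene. Nkx2-1 had 51 peaks in replicate 2 and 4 in replicate 1, a 12.8-fold difference. Nkx3-2 had 44 in replicate 2 and 5 in replicate 1, 8.8-fold. Nkx2-9 had 42 in replicate 2 and 7 in replicate 1, 6-fold. All of the peaks of replicate 1 at Nkx2-1 and Nkx2-9 had a partner, so the gap came from peaks that were called in replicate 2 alone. Nkx2-5 followed with 59 in replicate 2 and 10 in replicate 1, 5.9-fold. Nkx2-3 had the most peaks of any Nkx gene in replicate 2, with 66 in replicate 2 and 13 in replicate 1, 5.08-fold. Nkx6-1 had 43 in replicate 2 and 9 in replicate 1, 4.78-fold. The differences were smaller at the other 3 genes. Nkx2-6 had 36 in replicate 2 and 13 in replicate 1, 2.77-fold. Nkx6-2 had 24 in replicate 2 and 14 in replicate 1, 1.71-fold. Only Nkx2-2 had nearly equal numbers, 39 in replicate 2 and 38 in replicate 1.

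**Figure D1:**
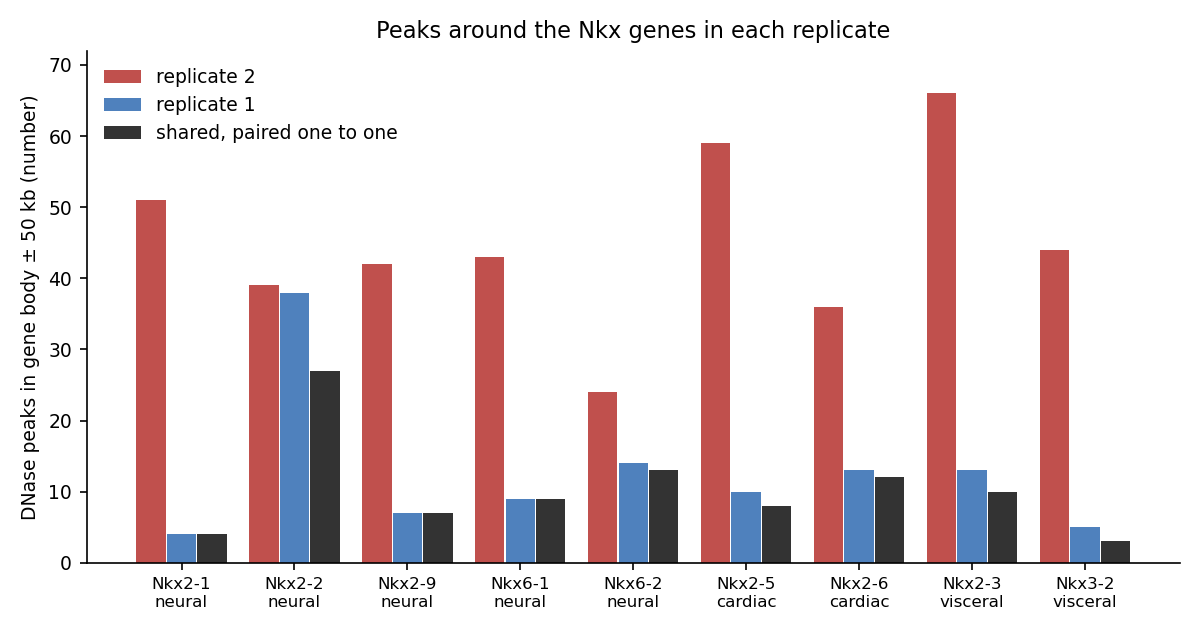
Number of DNase peaks in the gene body and 50 kb on each side of each Nkx gene (y axis) in replicate 2, replicate 1 and shared by both as one-to-one pairs. Replicate 2 exceeds replicate 1 at every gene, by 12.8-fold at Nkx2-1 and by 1 peak at Nkx2-2.

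Across the Nkx genes the median fold of replicate 2 over replicate 1 was 5.08, against 1.12 over the 20069 gene windows with peaks in both replicates. Of the 9 Nkx windows, 7 held at least 2 times as many peaks in replicate 2 as in replicate 1, against 5.22% of those gene windows. By this fold Nkx2-1, Nkx2-3, Nkx2-5, Nkx2-9, Nkx3-2 and Nkx6-1 lay above the 99th percentile of all genes, which was 3-fold. Nkx2-6 stood at percentile 98.5, Nkx6-2 at 91.8 and Nkx2-2 at 37.4. Genes are not replicates, and neighbouring windows share peaks, so these ranks describe the libraries and are not a test.

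**Figure D2:**
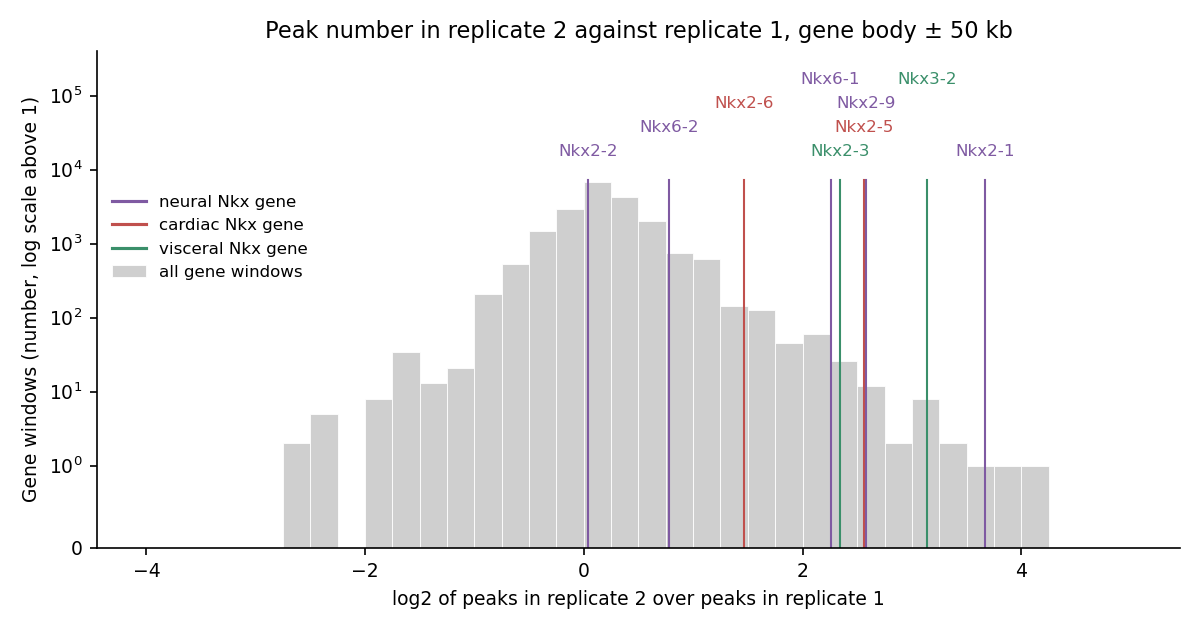
Distribution of the log2 ratio of peak number in replicate 2 to that in replicate 1 (x axis) over the 20069 protein-coding gene windows with peaks in both replicates (grey bars, y axis on a log scale above 1), with each Nkx gene as a vertical line coloured by group. Of the 9 lines, 7 lie at a ratio of at least 2-fold, where 5.22% of all windows lie, and Nkx2-2 lies near the centre.

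The peaks found only in replicate 2 filled the gene and its near surroundings in closely spaced runs. The counts by distance from the 5'-most TSS of each gene take in all peaks of a replicate, shared ones included. At 2 to 5 kb replicate 2 had 93 peaks and replicate 1 had 13, 7.15-fold, with 11 shared. At 5 to 10 kb replicate 2 had 91 and replicate 1 had 14, 6.5-fold. With all 9 genes counted, the fold was smaller on both sides of this zone. At 10 to 20 kb it was 3.42 (82 peaks in replicate 2 and 24 in replicate 1). Within 1 kb it was 3 (33 peaks in replicate 2 and 11 in replicate 1), and at 20 to 50 kb it was 1.7 (68 in replicate 2 and 40 in replicate 1). Over all protein-coding genes the same fold ran between 1.11 and 1.44. Nkx2-2 supplied many of the replicate 1 peaks at 5 to 20 kb from the 5'-most TSS. Without it the fold was 16.8 at 5 to 10 kb, with 84 peaks in replicate 2 and 5 in replicate 1. At 10 to 20 kb it was then 7.44, with 67 in replicate 2 and 9 in replicate 1. It was 8.6 at 2 to 5 kb and 1.86 at 20 to 50 kb.

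**Figure D3:**
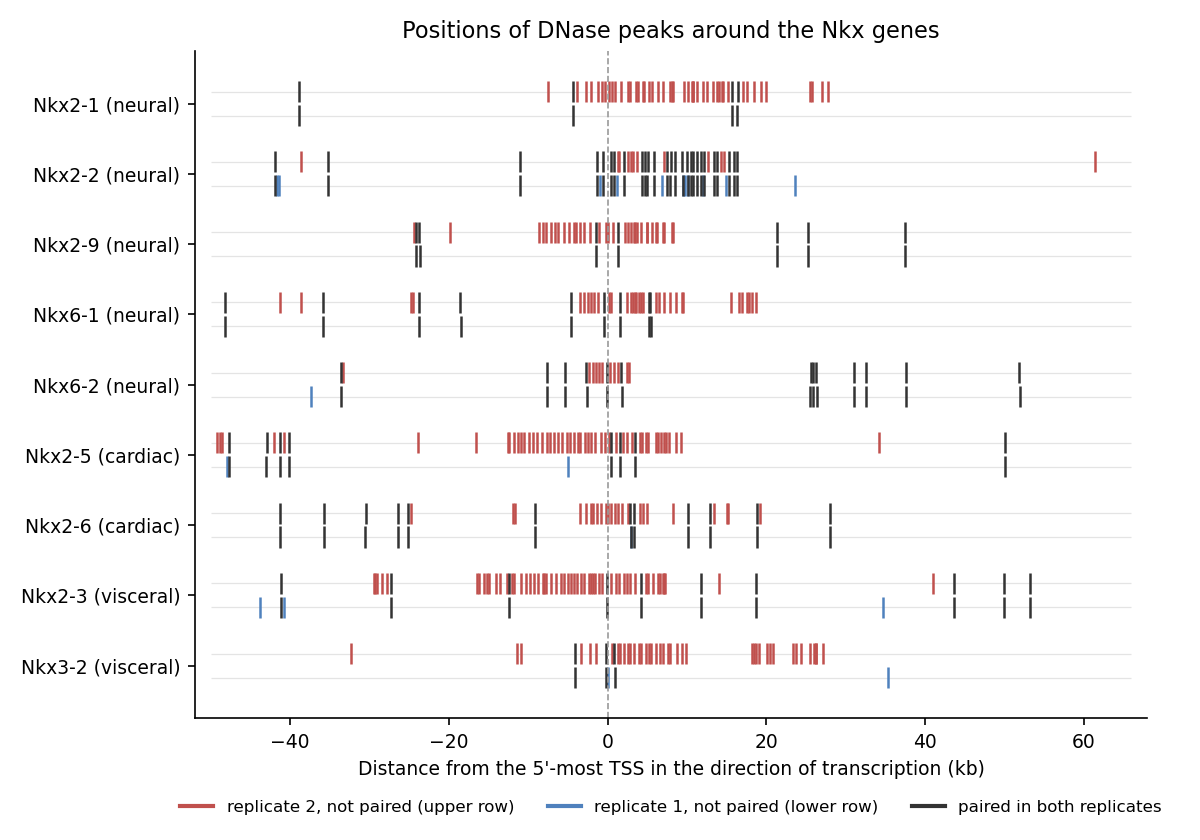
Position of each peak relative to the 5'-most TSS (x axis, kb in the direction of transcription) for each Nkx gene, with replicate 2 in the upper row and replicate 1 in the lower row, and pairs in black. Runs of unpaired replicate 2 peaks lie in and around the genes, and at 20 to 50 kb 31 of the 40 peaks of replicate 1 are paired.

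**Figure D4:**
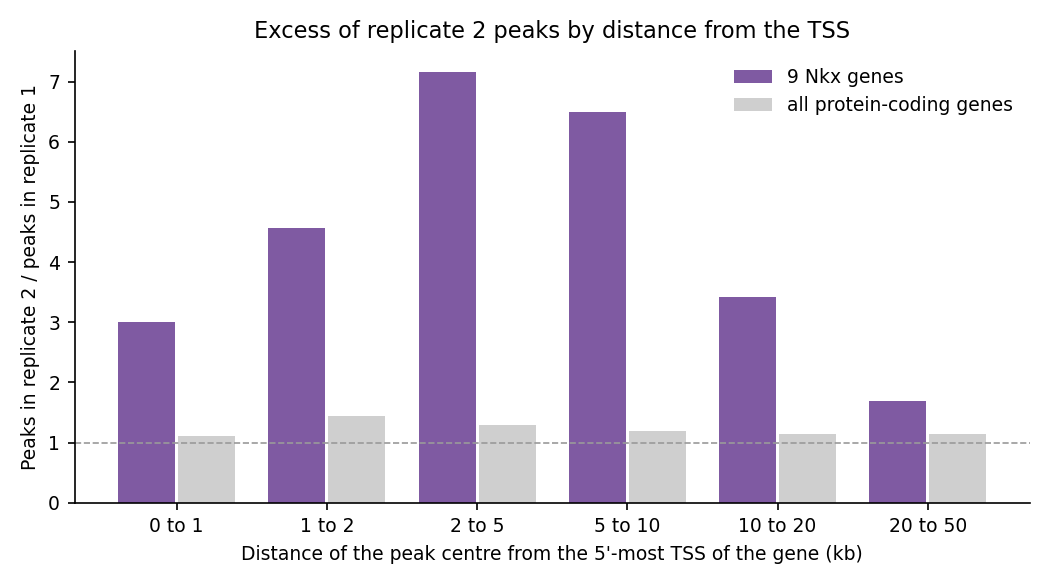
Peaks in replicate 2 over peaks in replicate 1 (y axis) by distance from the 5'-most TSS (x axis, kb), summed over the 9 Nkx genes and over all protein-coding genes, with a dashed line at 1. The Nkx genes reach 7.15 at 2 to 5 kb, where all genes have 1.30.

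Hotspots, the broader regions of raised DNase cutting that the authors called separately, showed the same zones. A hotspot wider than 2 kb lay in 9 of 9 Nkx windows in replicate 2, against 37% of all gene windows. In replicate 1 the count was 0 of 9, against 6.86% of all gene windows. The widest were in replicate 2 and covered the TSS of Nkx2-2 with 6920 bp, of Nkx2-3 with 6671 bp and of Nkx2-5 with 5851 bp. In replicate 1 the widest hotspot of Nkx2-3 was 687 bp and lay 40635 bp from its TSS, and that of Nkx2-5 was 421 bp. At Nkx2-1 a hotspot of 4786 bp in replicate 2 held 9 peaks of replicate 2 and 0 of replicate 1. The widest in replicate 2 was 4045 bp at Nkx2-6, 3103 bp at Nkx2-9, 2941 bp at Nkx3-2, 2611 bp at Nkx6-2 and 2427 bp at Nkx6-1.

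Hotspots covered 17.5% of the joined Nkx windows in replicate 2 and 3.35% in replicate 1, and 3.24% in both. The medians over all gene windows were 4.76% in replicate 2, 3.50% in replicate 1 and 3.12% in both. In the gene body and 10 kb on each side the coverage in replicate 2 ran between 25.2% at Nkx6-2 and 70.9% at Nkx2-3. In replicate 1 it ran between 1.02% at Nkx2-1 and 5.36% at Nkx6-1, and reached 30.5% at Nkx2-2. The medians over all genes were 5.15% in replicate 2 and 3.74% in replicate 1. In replicate 1 the coverage of the whole window was below the median of all genes at 7 of 9 Nkx genes, with a median of 2.24%, and the highest was 10.5% at Nkx2-2. In replicate 2 it ran between 9.11% and 26.5%, above the median of all genes at 9 of 9. With 2 libraries of 1 group, what set replicate 2 apart from replicate 1 was not tested.

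Shared peaks alone gave a different picture from replicate 2 alone. The windows of Nkx2-1 and Nkx2-9 overlap, so the 9 genes have 8 separate windows of 925 kb in all, with 403 peaks in replicate 2, 112 in replicate 1 and 92 shared pairs. That is 9.95 shared peaks per 100 kb over the joined windows, and 8.04 without Nkx2-2. The median of the 9 genes was 8.42, where the median of all gene windows was 8.62. By shared density the Nkx genes ran between percentile 18.2 of all genes at Nkx3-2 and percentile 96.3 at Nkx2-2, with a median of 48.6. That median was 65.6 with 25 kb on each side, and 87.4 when a peak counted only for the gene with the nearest TSS. In the latter count each window kept its full length, so genes with other TSSs close by lost peaks. The density over the joined Nkx windows was then 8.11 per 100 kb, so this higher percentile does not mean more shared peaks. By the peaks of replicate 2 alone their median percentile was 98.2, and by those of replicate 1 alone 39.6.

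Of the window peaks, 22.8% of those in replicate 2 overlapped a peak of replicate 1, against 67.6% over all replicate 2 peaks. In the other direction 84.8% of the window peaks in replicate 1 overlapped a peak of replicate 2, against 74.5% over all replicate 1 peaks. Both shares come from one overlap and depend on the unequal numbers of peaks. Without Nkx2-2 the shares were 17.9% in replicate 2 and 87.8% in replicate 1.

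Peaks of the Nkx windows, unshared and shared alike, had higher median strengths than such peaks over the whole genome. The 311 unshared peaks of replicate 2 in the Nkx windows had a median strength of 50, where all unshared replicate 2 peaks had 36. The shared ones in the windows had 73 in replicate 2, where all shared replicate 2 peaks had 60. In replicate 1 the shared window peaks had 52, against 48 over all, and the unshared ones had 35, against 28. The strongest unshared peak was at Nkx3-2, 85 at chr5:41767756-41767905, followed by 83 at Nkx2-3 (chr19:43607276-43607425) and 79 at Nkx2-5 (chr17:26839796-26839945). At the other 6 genes the strongest had 72 to 76. Of the 311, 3 lay inside a hotspot of replicate 1 (0.965%), all at Nkx2-2, against 7.06% of all unshared replicate 2 peaks. A hotspot wider than 2 kb in replicate 2 held 38.9% of the 311, against 8.65% of all unshared replicate 2 peaks. It also held 32.6% of the shared replicate 2 peaks of the windows, against 9.71% of all shared ones. The ratio of observed to expected CG dinucleotides had a median of 0.284 in the 311, against 0.464 in the shared window peaks of replicate 2. Over all nuclear peaks of replicate 2 the medians were 0.239 for unshared and 0.284 for shared peaks.

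**Figure D5:**
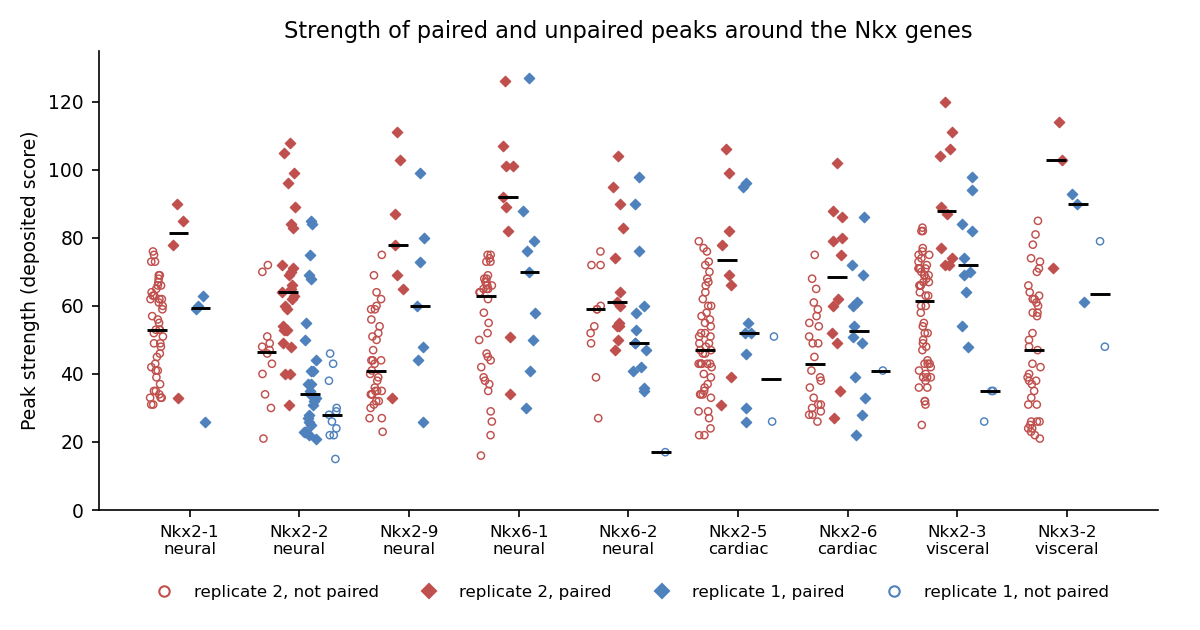
Strength of each peak (y axis, the deposited score) by Nkx gene, with unpaired peaks as open circles, paired peaks as diamonds and black bars at the medians. Unpaired peaks of replicate 2 run between 16 and 85, and the strongest pair, at Nkx6-1, has 126 in replicate 2 and 127 in replicate 1.

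Where both replicates had a peak, replicate 2 was somewhat stronger, as in the genome at large. The median log2 strength ratio of replicate 2 to replicate 1 was 0.39 over the 92 pairs (SD 0.34), against 0.26 over all 152116 pairs (SD 0.29). Nkx2-2 had the highest median log2 ratio, 0.82 over its 27 pairs, and the other genes ran between 0.22 at Nkx3-2 and 0.42 at Nkx2-1. Nkx2-2 was also the gene whose replicate 1 peaks were many and weak. They had a median of 32.5, where the peaks of replicate 1 in the other windows had medians of 49 to 79, and 29 of the 38 lay inside the gene body. In replicate 2, 32 of 39 lay there, with a median over its window of 59. Nkx2-2 was thus the gene with the most peaks in replicate 1 and the one where pairs differed most in strength.

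The strongest distal shared peaks, ranked by the mean of both replicates, had strengths like those of promoters. Nkx2-2 had its strongest in its own intron, 7036 bp from the nearest of its TSSs (chr2:147178916-147179065), with 108 in replicate 2 and 85 in replicate 1. Nkx6-1 had its strongest in an intron as well (chr5:101659736-101659885), with 101 in replicate 2 and 88 in replicate 1, and a distal one 23680 bp upstream with 107 in replicate 2 and 76 in replicate 1. At Nkx2-9 a site 23612 bp upstream had 111 in replicate 2 and 80 in replicate 1. These neural sites were all nearest to the gene named, among protein-coding genes.

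Nkx6-2 had its strongest in an intron of Inpp5a (chr7:139530756-139530905), with 90 in both replicates, and that site was nearer to a TSS of Inpp5a. The TSS of Cfap46 also lies in the window of Nkx6-2. The strongest of Nkx2-1, 4288 bp from its TSS, had 90 in replicate 2 and 60 in replicate 1. Nkx2-1 had just 4 distal shared peaks, of which 2 lay inside the pseudogene Sfta3-ps. Nkx2-5 had 4 as well, and the strongest, with 82 in replicate 2 and 55 in replicate 1, was nearest to Bnip1, whose TSS lies in the same window. The Nkx2-5 intron site shown above had 66 in replicate 2 and 52 in replicate 1, inside the hotspot of 5851 bp that replicate 2 had there. Replicate 1 had a hotspot of 134 bp at that site.

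Nkx2-6 had its strongest distal site 26297 bp upstream, with 102 in replicate 2 and 69 in replicate 1. It had 11 distal shared peaks in all, and only Nkx2-2, with 16, had more. Nkx2-3 had a site 18691 bp downstream with 106 in replicate 2 and 94 in replicate 1. Nkx3-2 had 1 distal shared peak, 3975 bp upstream (chr5:41768476-41768625), with 103 in replicate 2 and 90 in replicate 1. Of all 68 distal shared peaks, 33 lay in introns, 28 between genes and 7 in exons, and 56 had the TSS of their Nkx gene as the nearest protein-coding one.

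The neural, cardiac and visceral genes could not be told apart by these counts. The median density of shared peaks was 8.42 per 100 kb over the 5 neural genes, with a range of 3.81 to 23.1. It was 9.55 over the 2 cardiac genes (7.52 and 11.6) and 6.28 over the 2 visceral genes (9.66 and 2.91). The neural range encloses both cardiac values and that of Nkx2-3, and only Nkx3-2 lay below it. In replicate 2 the medians were 40.2 per 100 kb for neural, 45.1 for cardiac and 53.2 for visceral genes, and in replicate 1 they were 8.42 for neural, 11.0 for cardiac and 8.70 for visceral genes. The median fold of replicate 2 over replicate 1 was 4.78 for neural genes, 4.33 for cardiac and 6.94 for visceral. The visceral genes had 2 of 2 promoters with a shared peak, the cardiac 1 of 2 and the neural 3 of 5.

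The Nkx2 motif was about as frequent in these distal sites as elsewhere, and the Nkx6 motif was too rare for a comparison over 68 sites. The Nkx2 motif TNAAGTG, searched on both strands, lay in 7 of the 68 distal shared peaks, or 10.3%, against 8.64% of all 111406 distal shared peaks. Among 150 bp windows taken 1 kb to each side and free of peaks, 12.5% of those beside the Nkx sites held it. The Nkx6 motif TTAATTA lay in 0 of 68, which allows a share of up to 4.41%, against 2.31% of all distal shared peaks. The shorter homeodomain core TAATTA, part of the Nkx6 motif, also lay in 0 of 68, against 4.28%. Among motifs of other families, Gli sites (GACCACCCA) and T-box sites (AGGTGTNA) lay in 0 of 68, Gata sites (AGATAA) in 2.94%, Sox sites (ACAATGG) in 4.41%, Fox sites (TNTTTAC) in 7.35% and the E-box CAGCTG in 11.8%. Over all distal shared peaks these shares were 0.273% for Gli, 1.62% for T-box, 6.40% for Gata, 3.18% for Sox, 6.36% for Fox and 17.2% for the E-box. With 68 sites, 1 site more or less moves a share by over 1 point, and a match is a letter pattern and not a bound site.

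The core sequence of CTCF, the factor that anchors chromatin loops, was looked for after the strongest sites had been seen. With at most 1 mismatch it lay in 17 of the 68 distal shared peaks, or 25%, against 17.5% of all distal shared peaks. This share depends on strength. Among those with a mean strength of at least 73.5, 6 of 22 in the Nkx windows held it, or 27.3%, against 34.3% of all. The strongest distal shared peak held it at 4 of 9 genes, the 4 shown above, a count over sites seen before the search. Among the 253 distal peaks of the Nkx windows that replicate 2 alone had, 5 held it, or 1.98%, against 5.61% of all distal peaks unshared in replicate 2.

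Other genes that act with the Nkx factors were set beside them as lists, by the same window counts. Among Nkx genes outside the set, the fold of replicate 2 over replicate 1 was 0.938 at Nkx6-3, 1.28 at Nkx1-2, 1.42 at Nkx1-1 and 5.25 at Nkx2-4. Nkx2-4, the nearest relative of Nkx2-1, had 21 peaks in replicate 2 and 4 in replicate 1. Over all protein-coding genes, 69.7% had a TSS peak in both replicates, and the median fold of gene windows with peaks in both was 1.12. In a ventral neural tube list, 13 of 14 had a TSS peak in both, led by Gli1 and Pax6 in density, with a median fold of 1.39. Of 9 heart partners, led by Hand2 and Hand1, 9 had such a peak, with a median fold of 1.96. Of 9 partners in gut, spleen and sclerotome, led by Foxf1 and Sox9, 7 had one, with a median fold of 3.23. In 7 of the 9 the fold was at least 2, as it was in 4 of the 9 heart partners and 3 of the 14 ventral neural tube genes. Of all gene windows with peaks in both replicates, 5.22% had such a fold. Of 5 thyroid and lung partners, led by Sox2 and Foxa1, 5 had a TSS peak in both, with a median fold of 1.33, and 1 had a fold of at least 2. High folds were thus not seen at the Nkx genes alone.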

How the data were processed

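DNase-seq peaks and hotspots of the 2 replicates were used on the mm10 build. The authors called both on each replicate by itself, per the labels and the deposited text. The aligner, the callers, their versions and their thresholds were not given in the sources used here. A deposited peak has a width of 150 bp and a whole-number score (strength), of unstated definition, that never exceeded 149 on nuclear chromosomes. The value deposited with a hotspot is the −log10 of its q-value, from 1.30 to 6, and 100 for anything smaller in q.

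Repeated peak lines (47 in replicate 2 and 28 in replicate 1) and peaks outside the nuclear chromosomes were dropped. Peaks were assigned to gene bodies of GENCODE M21 with 50 kb on each side by their centre, and paired one to one at an overlap of at least 1 bp. Sequences came from the RefSeq copy of GRCm38, whose chromosome lengths are those of mm10, read with pysam 0.24.0, and tables were made with pandas 2.3.3. Interval counts were tested on simulated data. The members, groups, lists and motifs were chosen with earlier results of these data known. The 2-fold limit, the hotspot width of 2 kb, the distance classes, the 10 kb coverage and the CTCF search were chosen after seeing the data. All 9 genes are named, and the rule for sites took their shared TSS peaks, the distal shared peaks of highest mean strength, the strongest unshared peaks, the widest hotspots and neighbours, of which 1 gene is left out of this account. Of each partner list the genes of highest density are named, and marker genes were named after their values were seen. Everything is descriptive: 1 group of 2 replicates allows no test, and the depth is unknown. Alternatives changed the overlap, the window, the TSS rule, the strength kept and the replicates used.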

Additional observations from a re-analysis of the deposited data

How the results depend on the processing

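The spread between the replicates exceeds the value itself for peak densities and hotspot coverage, so a shift within it says nothing about stability. Of 71 alternatives, 13 were labelled as moved, all of them with replicate 2 alone or in a motif share. The limit was the spread between the replicates, but a ratio for TSS counts and the SD over pairs for strength. For motif shares that spread was 0.75 points for Nkx2 and 0.019 for Nkx6, less than 1 site of 68. Shared peaks and hotspot bases cannot exceed those of replicate 1. Moves of density and coverage with replicate 2 alone were thus fixed by its larger counts, and the 13 is no measure of stability. With replicate 2 alone, shared peaks become all of its peaks, and values were 43.6 per 100 kb over the windows (9.95 with both), 98.2 for the median percentile, 40.2, 45.1 and 53.2 per 100 kb for neural, cardiac and visceral genes, and 17.5% for hotspot coverage. With replicate 1 alone they were 12.1 per 100 kb, percentile 39.6, then 8.42, 11.0 and 8.70 per 100 kb, and 3.35%. The Nkx2 motif share of 10.3% was 6.98% in the stronger 50% of peaks and 14.7% over 300 bp, and 7.48% to 8.54% with 1 replicate. The Nkx6 share of 0 was 1.47% over 300 bp and 1.22% to 1.25% with 1 replicate. The TSS count ran between 6 and 9 with 1 replicate left out, and was 7 with a 2500 bp window, which adds Nkx2-9. The order of the groups was not stable: with 25 kb on each side the medians were 12.3 neural, 9.18 cardiac and 7.50 visceral, and with Nkx2-1 counted as visceral 10.5 neural and 3.81 visceral. Counting only peaks nearest to the gene's own TSS, the median percentile was 87.4, while the density over the windows was lower, at 8.11 per 100 kb. Leaving out Nkx2-2, added after seeing the data, gave 8.04 per 100 kb. The cause of these shifts was not tested. No paired analysis was possible because there is only 1 group. With 2 to 5 genes in a group and 68 distal sites, small differences cannot be resolved, and without read numbers no interval for depth can be given.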

Other observations

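Promoters of tissue markers were counted in the same way as those of the Nkx genes. A TSS peak in both replicates lay at 5 of 5 neural markers, 5 of 5 sclerotome markers, 4 of 5 heart markers, 4 of 5 endoderm markers and 3 of 5 markers of gut and spleen mesenchyme, where 69.7% of all protein-coding genes had one. Of 5 trophoblast markers (Gcm1, Prl3d1, Prl3b1, Tpbpa and Ctsq) 0 had one, and of 5 decidua markers 3 had one (Hand2, Dcn and Wnt4, which embryonic tissue also uses). The fold of replicate 2 over replicate 1 in peak number differed between these lists. It had a median of 3.71 at markers of gut and spleen mesenchyme and 3.23 at sclerotome markers, against 1.19 at neural, 1.54 at heart and 1.22 at endoderm markers. The lists have 5 genes each and share members with the partner lists, so these medians are descriptions.

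Inside hotspots wider than 2 kb in replicate 2, neighbouring peak centres in the Nkx windows were a median of 480 bp apart (quartiles 370 and 620 bp, 139 gaps), against 500 bp in all such hotspots.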
